A study of Arabidopsis thaliana with 20 samples.

Results

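LpxA (AT4G29540), CKS (AT1G53000) and AT1G73740 are nuclear genes of Arabidopsis thaliana whose closest bacterial relatives build sugar and lipid parts of the cell envelope. They were chosen by annotation, as the array rows that list exactly 1 gene and list 1 of these 3, and each gene had 1 such row, so there are 3 members among 691 genes with a row of their own and 3439 rows in all. The genes were picked with their levels, zeros and direction in the mutant already known. Those values are therefore given as a description, with no test. Total RNA was measured on arrays in 10 columns labelled atpc1-1 and 10 columns labelled wild type (WT). The atpc1-1 mutant lacks the γ subunit of the ATP synthase, part of the rotor through which this chloroplast enzyme uses the light-driven proton gradient to make ATP. Both genotypes are of ecotype Columbia 0 and were grown on MS medium, a salt and vitamin medium for plant culture. The sources used here do not give the tissue, the plant age, the kind of lesion in the mutant or whether plants were pooled.

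In Gram-negative bacteria LpxA opens the synthesis of lipid A, the lipid anchor of lipopolysaccharide, by moving an acyl chain from acyl carrier protein onto UDP-GlcNAc. CKS, the CMP-Kdo synthetase, activates the acidic sugar Kdo, which bacteria attach to lipid A and plants build into the pectin rhamnogalacturonan II. In Arabidopsis both proteins are known from mitochondria. Bacterial MurG adds GlcNAc to the lipid-linked precursor of peptidoglycan, and its glycosyltransferase family also holds the plant galactolipid synthases of the plastid envelope. AT1G73740 is called MurG-like here from background knowledge, since the annotation used here gives it no symbol. RefSeq lists 4 transcripts for LpxA, 2 for CKS and 1 for AT1G73740, and the sources used here do not say which of them a probe detects.

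Some facts of the whole series bear on the values. Intensities are on the deposited linear scale, on which column means lay between 0.920 and 0.973 in atpc1-1 and between 1.01 and 1.06 in WT. Column medians lay between 0.130 and 0.224 in atpc1-1 and between 0.339 and 0.493 in WT, and 5.70% to 20.8% of rows were at 0 in atpc1-1 columns, against 3.63% to 4.36% in WT columns. Columns of adjoining number (1 with 2, 3 with 4, and so on) correlated best with each other and were averaged to 5 replicates per genotype, although the labels do not say that they share an RNA sample or that the replicates came from separate plants. WT replicate 5 (columns 9 and 10) stood apart from WT replicates 1 to 4. Its Spearman rho with them across rows was 0.812 to 0.833, against 0.884 to 0.951 among those 4. With the atpc1-1 replicates its rho was 0.739 to 0.842, a range that takes in its rho with WT replicates 1 to 4. Why WT replicate 5 stood apart was not tested, and values without it are given where they differ. The probe of the mutated gene lists ATPC2 with ATPC1, so it does not check the labels: its intensity was 0.113 to 1.96 in atpc1-1 and 0.315 to 0.760 in WT (limma adjusted p = 0.759). Of 11 green tissue markers 4 had a row of their own (PSAN, PSBW, PSBY and the antenna gene LHB1B2), at percentiles of 91.9 to 99.9 in atpc1-1 columns and 82.5 to 99.9 in WT columns. Of these, PSBY was called higher in atpc1-1 by limma, at percentiles of 92.3 to 95.1 in atpc1-1 columns and 82.5 to 88.8 in WT columns, and its part in the results below was not tested. None of 13 root and other non-green markers had a row of its own.

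LpxA was bright in both genotypes and stood higher in atpc1-1. Its intensity in atpc1-1 columns 1 to 10 was 1.94, 2.71, 3.33, 3.35, 2.83, 3.15, 2.92, 3.68, 4.54 and 4.49. In WT columns 1 to 10 it was 0.794, 1.00, 1.42, 1.31, 1.30, 1.57, 1.51, 1.46, 2.69 and 2.66. The genotypes overlapped through a single atpc1-1 column, column 1, which lay below WT columns 9 and 10, and the other 9 atpc1-1 columns lay above every WT column. Against WT columns 1 to 8 alone, all 10 atpc1-1 columns were higher, as were 2.94% of the 3439 rows. Mean intensity was 3.29 ± 0.79 in atpc1-1 and 1.57 ± 0.66 in WT (SD over replicates, n = 5 each), a ratio of 2.10. In bulk RNA such as this, a change in the share of cells that express a gene and a change in RNA per cell cannot be told apart.

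The percentile of a row among all rows of its own column does not depend on how columns are scaled. LpxA stood at a percentile of 92.3 to 96.6 in atpc1-1 columns (median 95.4) and of 69.4 to 93.5 in WT columns (median 86.3). By percentile, too, 9 of 10 atpc1-1 columns lay above all WT columns. All 10 lay above WT columns 1 to 8, which reached 88.9, and 8.23% of rows did the same. After quantile normalisation, which gives all columns about the same distribution, LpxA had log2 values of 1.07, 1.94, 1.42, 1.67 and 2.12 in atpc1-1 replicates 1 to 5, against -0.72, 0.18, 0.41, 0.40 and 1.33 in WT replicates 1 to 5. Replicate 1 was lowest and replicate 5 highest in both genotypes, and only WT replicate 5 reached the atpc1-1 range. The log2 difference, atpc1-1 minus WT, was 1.32 (SE 0.37), or 2.50-fold, and 8.70% of the 3298 tested rows had a larger one. It was 1.58 without WT replicate 5.

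**Figure D1:**
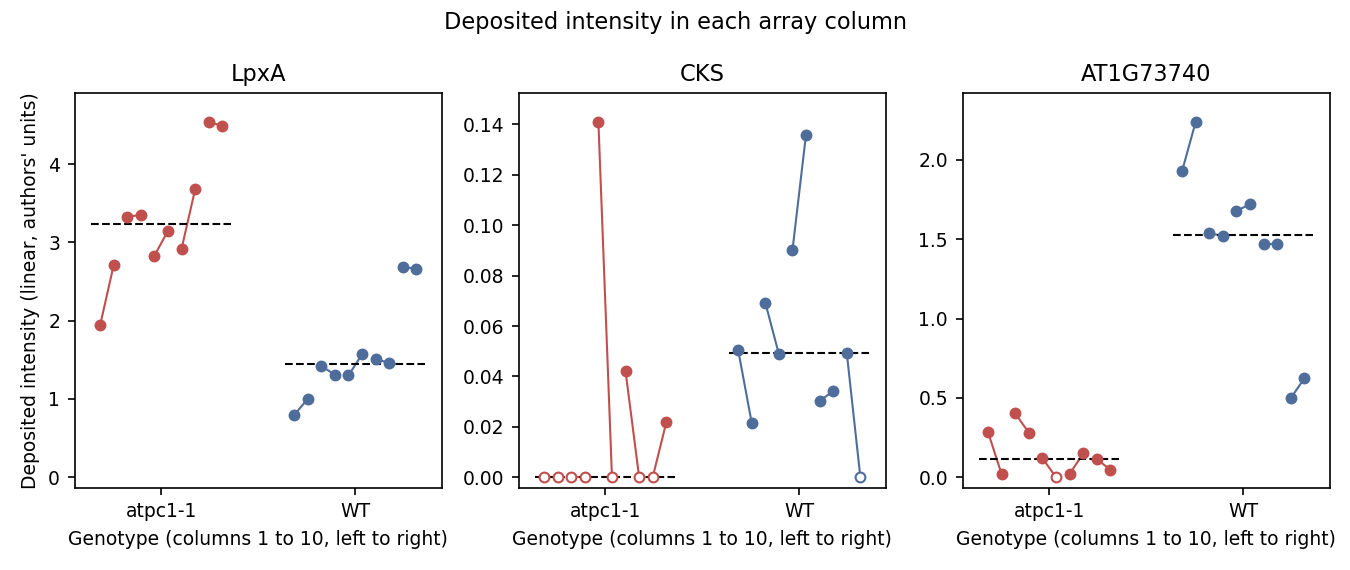
Deposited intensity (linear, authors' units) of LpxA, CKS and AT1G73740 in each array column, with atpc1-1 left and WT right; lines join columns averaged to 1 replicate, open circles are values of 0 and dashed lines are medians. LpxA reaches 4.54 in atpc1-1 and 2.69 in WT, CKS is at 0 in 7 of 10 atpc1-1 and 1 of 10 WT columns, and AT1G73740 lies at or below 0.402 in atpc1-1 and at or above 0.498 in WT; the vertical scales differ.

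CKS was near the floor in both genotypes and was listed at 0 in 7 of 10 atpc1-1 columns and in 1 of 10 WT columns. The atpc1-1 columns with a value above 0 were columns 5, 7 and 10, at intensities of 0.141, 0.0420 and 0.0218. The WT columns 1 to 9 held 0.0506, 0.0216, 0.0693, 0.0489, 0.0900, 0.136, 0.0303, 0.0341 and 0.0493, and column 10 was at 0. The values above 0 thus covered nearly the same range in both genotypes. With zeros counted as 0, mean intensity was 0.0205 ± 0.0293 in atpc1-1 and 0.0530 ± 0.0359 in WT (SD, n = 5 replicates each). Of all rows, 37 (1.08%) were at 0 in 7 or more atpc1-1 columns and in 1 or fewer WT columns, and no row showed the opposite pattern.

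In the 7 atpc1-1 columns where CKS was at 0, 5.70% to 20.8% of all rows were at 0, and in the 3 where it was above 0 the share was 11.2% to 16.7%. The part of column-wide loss of signal in the zeros of CKS was not tested. In 4 of the 5 WT replicates both columns held a CKS value, and in no atpc1-1 replicate did they. In percentile terms CKS was at 2.11 to 10.6 in WT columns, where 2.11 is the column at 0. The 7 atpc1-1 columns at 0 stood at 2.86 to 10.4, within that range. Its 3 atpc1-1 values above 0 were at 46.5, 26.6 and 18.2, in columns whose median intensity lay below that of every WT column.

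The direction of CKS is therefore not settled by these data. After quantile normalisation, with zeros as missing, atpc1-1 replicates 3, 4 and 5 stood at -2.23, -3.38 and -4.11 (replicates 1 and 2 had no value), and WT replicates 1 to 5 at -5.64, -5.01, -4.63, -5.69 and -5.05. The log2 difference of these values was 1.96 (SE 0.45), computed on 3 atpc1-1 replicates that each rest on 1 column. On the deposited scale the difference was -0.0064 (SE 0.64), while the median of all tested rows there was -1.22. The count of zeros and the normalised values thus point in opposite directions for this gene.

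**Figure D2:**
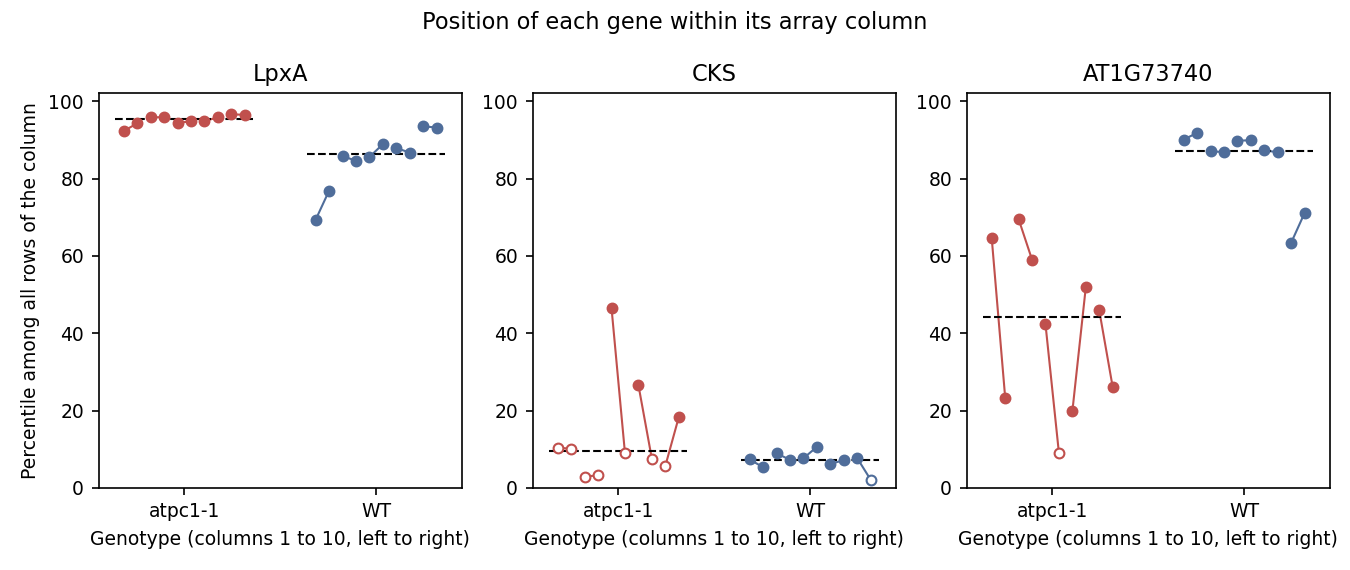
Percentile of each gene among the 3439 rows of its own array column, with atpc1-1 left and WT right; lines join columns averaged to 1 replicate, open circles are rows at 0 (which share the mean rank of all rows at 0) and dashed lines are medians. LpxA lies at 92.3 or above in atpc1-1, AT1G73740 spreads from 8.99 to 69.5 in atpc1-1 and sits at 63.4 or above in WT, and the 3 CKS values above 0 in atpc1-1 lie above all WT columns. The 7 CKS values at 0 in atpc1-1 lie within the WT range.

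AT1G73740, the MurG-like glycosyltransferase gene, was lower in every atpc1-1 column than in any WT column. Its intensity in atpc1-1 columns 1 to 10 was 0.284, 0.0189, 0.402, 0.281, 0.120, 0, 0.0188, 0.150, 0.114 and 0.0475. In WT columns 1 to 10 it was 1.93, 2.24, 1.54, 1.52, 1.68, 1.72, 1.47, 1.47, 0.498 and 0.623. WT columns 1 to 8 were all at or above 1.47, and WT columns 9 and 10 lay between them and the mutant. Mean intensity was 0.144 ± 0.116 in atpc1-1 and 1.47 ± 0.56 in WT (SD, n = 5 replicates each), 10.2 times as high in WT. On the deposited scale 21.0% of all rows were lower in every atpc1-1 column than in any WT column, so the lack of overlap by itself is common there.

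By percentile AT1G73740 stood at 8.99 to 69.5 in atpc1-1 columns (median 44.1) and at 63.4 to 91.8 in WT columns (median 87.2). In 8 of 10 atpc1-1 columns it was below every WT column, and columns 1 and 3 lay above WT column 9, at 64.5 and 69.5. Against WT columns 1 to 8, whose lowest percentile was 86.8, all 10 atpc1-1 columns were lower, as were 7.24% of rows. Quantile-normalised log2 values were -3.26, -1.20, -2.44, -3.14 and -2.65 in atpc1-1 replicates 1 to 5, where replicate 3 rests on column 5 alone because column 6 was at 0, and 0.90, 0.36, 0.73, 0.37 and -1.03 in WT replicates 1 to 5. The ranges did not overlap, as was the case, in this direction, for 10.3% of tested rows. The log2 difference was -2.81 (SE 0.46), a 6.99-fold lower level in atpc1-1, and 1.15% of tested rows had a more negative one. It was -3.16 without WT replicate 5.

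The 3 genes also differed in how well columns of 1 replicate matched. For LpxA the log2 intensities of the columns of a replicate differed by 0.20 on average in atpc1-1 and by 0.16 in WT, and for the median row by 0.68 in atpc1-1 and 0.24 in WT. For AT1G73740 the mean gap was 2.17 in atpc1-1, over the 4 replicates with both columns above 0, and 0.12 in WT. Its level in the mutant was thus measured less closely than its level in WT. For CKS the gap was 0.63 in WT and could not be computed in atpc1-1.

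LpxA and AT1G73740 can also be compared within a column, where any scaling of the column cancels. The log2 ratio of LpxA to AT1G73740 intensity ran from 2.78 to 7.28 in the 9 atpc1-1 columns with both values. In the 10 WT columns it ran from -1.28 to 2.43, without overlap. How often ratios of other pairs of rows do the same was not computed. Among single rows, 21.0% were lower in every atpc1-1 column than in any WT column on the deposited scale. That share depends on how columns are scaled, so it is no background for the ratio. Probes differ in brightness for equal RNA, so the ratio shows an unequal change between genotypes and not which gene had more RNA. By itself it also does not show in which direction either gene moved. Its mean was 4.95 ± 1.10 in atpc1-1 and 0.13 ± 1.29 in WT (SD, n = 5 replicates each). The size of the ratio in atpc1-1 is not well measured, since AT1G73740 was near the floor there: columns 1 and 2, of 1 replicate, were at 2.78 and 7.16, and column 6 had no value. WT columns 9 and 10, at 2.43 and 2.09, were the WT columns nearest to the mutant, and the other 8 lay at or below 0.044. This ratio was chosen after the values had been seen, from a gene known to be higher and a gene known to be lower, which favours a separation.

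**Figure D3:**
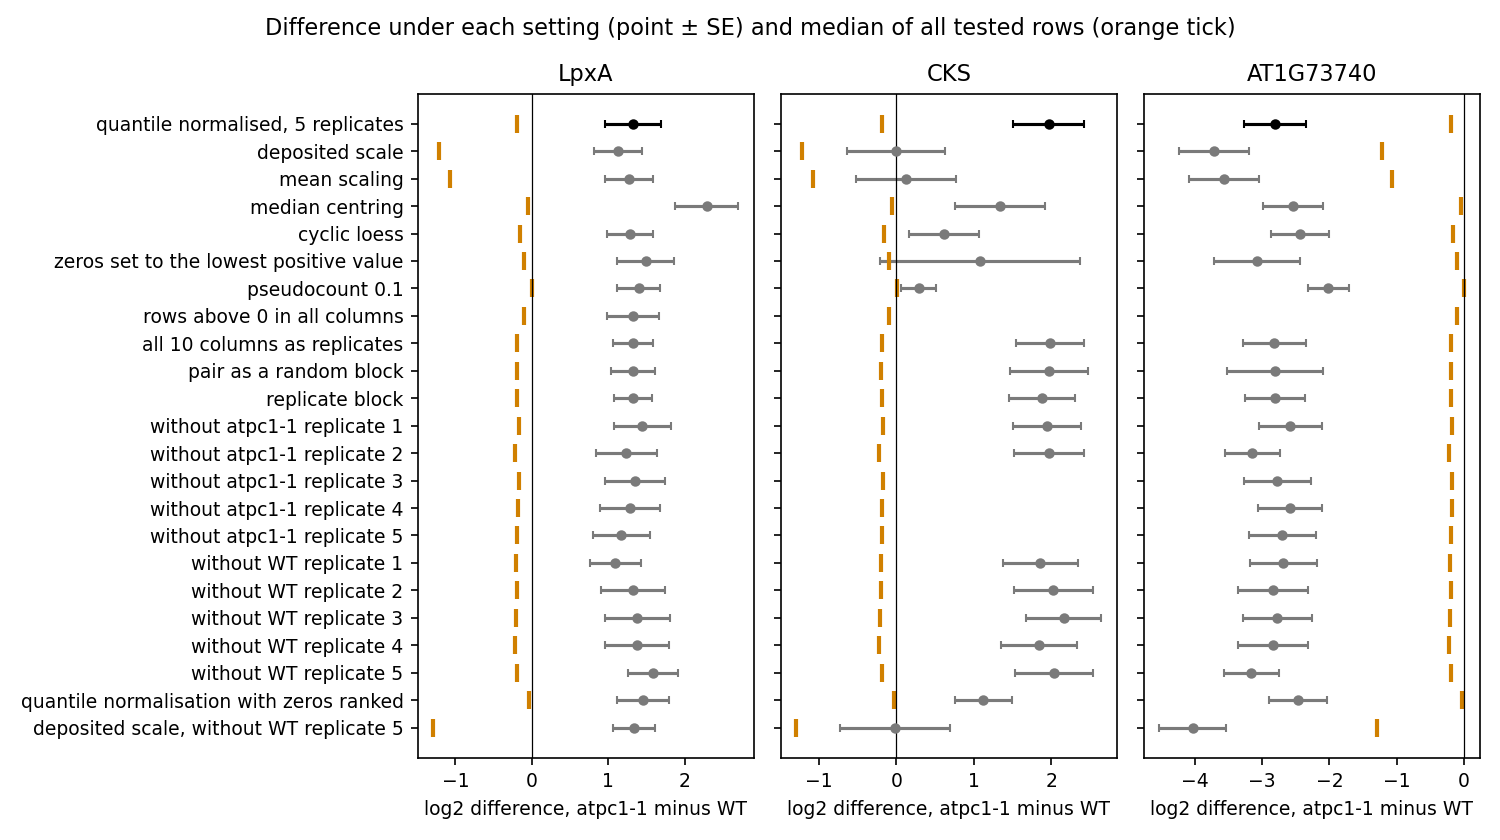
Log2 difference, atpc1-1 minus WT (point ± SE of the limma fit), of each gene under the normalisation used in the text (top) and under each alternative, with the median of all tested rows as an orange tick; a gene with too few values under a setting has no point. LpxA stays between 1.09 and 2.29 and AT1G73740 between -4.03 and -2.01, while CKS runs from -0.017 to 2.16.

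LpxA was higher in atpc1-1 under all 22 alternatives, with log2 differences of 1.09 to 2.29, and AT1G73740 was lower under all 21 in which it could be computed, at -4.03 to -2.01. LpxA was also higher on the deposited scale, on which the median of all tested rows was -1.22. CKS ranged from -0.017 to 2.16 under 18 alternatives.

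Few other genes of these pathways could be read. Of the 13 other genes listed for lipid A and Kdo synthesis, the 3 other genes of peptidoglycan type, the 8 plastid envelope glycolipid enzymes and the 9 genes of Kdo-bearing and other pectins, none had a row listing that gene alone. Of 5 genes that supply UDP-GlcNAc, the acyl acceptor of LpxA and the sugar donor of MurG, 1 had such a row, and of 22 genes of acyl carrier proteins and of the making and release of acyl chains, most of them of plastids, 3 had one. Of these 4 genes 1 passed the test as higher in atpc1-1 (limma with Benjamini-Hochberg adjustment over all tested rows, adjusted p under 0.05), 0 as lower and 3 did not pass, beside 10.2% of all tested rows called higher and 14.3% called lower (24.5% in all). Their median log2 difference was 0.12, against -0.19 over all tested rows. The lists were chosen with earlier results of these data known, so this count and the p-values below are not independent support.

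FATB, a plastid thioesterase that frees saturated fatty acids from acyl carrier protein, was the gene that passed. Its log2 values were -1.82, -1.27, -0.60, -0.66 and -0.86 in atpc1-1 replicates and -3.26, -2.63, -2.68, -2.19 and -1.97 in WT replicates, all 5 atpc1-1 values lying above all 5 in WT, as in 7.37% of tested rows. The log2 difference was 1.50 (SE 0.33, limma adjusted p = 0.0107). FATB did not pass on the deposited scale, at 0.38 (limma adjusted p = 0.275), or with mean scaling, at 0.53 (limma adjusted p = 0.151), where the medians of all tested rows were -1.22 and -1.08.

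DRT101, the phosphoglucosamine mutase on the way to UDP-GlcNAc, averaged -0.40 ± 0.43 in atpc1-1 and -0.23 ± 0.22 in WT on the log2 scale (SD, n = 5 each), a difference of -0.16 (SE 0.26, limma adjusted p = 0.681). It passed as lower on the deposited scale at -0.84 (limma adjusted p = 0.0190), a smaller fall than the median of all rows there. AT2G04540, the mitochondrial 3-ketoacyl-ACP synthase, averaged -0.95 ± 0.26 in atpc1-1 and -1.35 ± 0.29 in WT (SD, n = 5 each), a difference of 0.40 (SE 0.24, limma adjusted p = 0.237) that turned to -0.58 on the deposited scale (limma adjusted p = 0.0302). AT1G24360, the plastid 3-ketoacyl-ACP reductase, averaged -3.25 ± 2.71 in atpc1-1 and -2.62 ± 0.79 in WT (SD, n = 5 each), a difference of -0.63 (SE 1.07, limma adjusted p = 0.696). AT1G24360 was above 0 in 9 of 10 atpc1-1 columns. Its atpc1-1 replicate 1 stood at -8.07, and without that replicate the difference was 0.56 (limma adjusted p = 0.310). In the 3 settings that kept zeros as low values, the difference was 0.61, 0.29 and 0.42. Over all settings the limma adjusted p ran from 6.2e-05 to 0.275 for FATB, from 0.0190 to 0.978 for DRT101, from 0.0302 to 0.401 for AT2G04540 and from 0.119 to 0.923 for AT1G24360.

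Genes with the most similar profile were sought among 522 single-gene rows with a value in all 10 replicates. Likeness was the root mean square distance between profiles, in log2 units, after each gene's own mean was subtracted, so genes that differ between genotypes by a similar amount are favoured. TPP2, tripeptidyl peptidase II, was nearest to LpxA at 0.23 over 10 replicates, followed by AT1G21660 at 0.23 and AT4G30740 at 0.26, against a median of 1.11 over all 522. Their log2 differences between genotypes were 1.40, 1.10 and 1.47. Nearest to AT1G73740 were AT2G39100 at 0.49, AT5G17630, the plastid xylulose 5-phosphate translocator, at 0.50 and AT3G18870 at 0.58, against a median of 1.56, with log2 differences of -2.98, -3.37 and -2.35. In all 6 of these genes, as in LpxA and AT1G73740, WT replicate 5 was the WT replicate nearest to the mutant, a feature that the choice by profile over the same replicates favours. For CKS, over its 8 replicates with a value, AT2G43180 at 0.39, AT1G62780 at 0.48 and FATB at 0.61 were nearest, against a median of 1.32. Their log2 differences were 1.90, 1.73 and 1.50. The atpc1-1 part of the CKS profile rests on the 3 columns above 0, so these neighbours do not settle its direction.

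These neighbours depend on the processing. Under 6 other treatments of scale and zeros, between 1 and 3 of the 3 genes named for LpxA and 1 or 2 of those named for AT1G73740 were again among the nearest 3. For CKS none was in 3 of the 6.

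**Figure D4:**
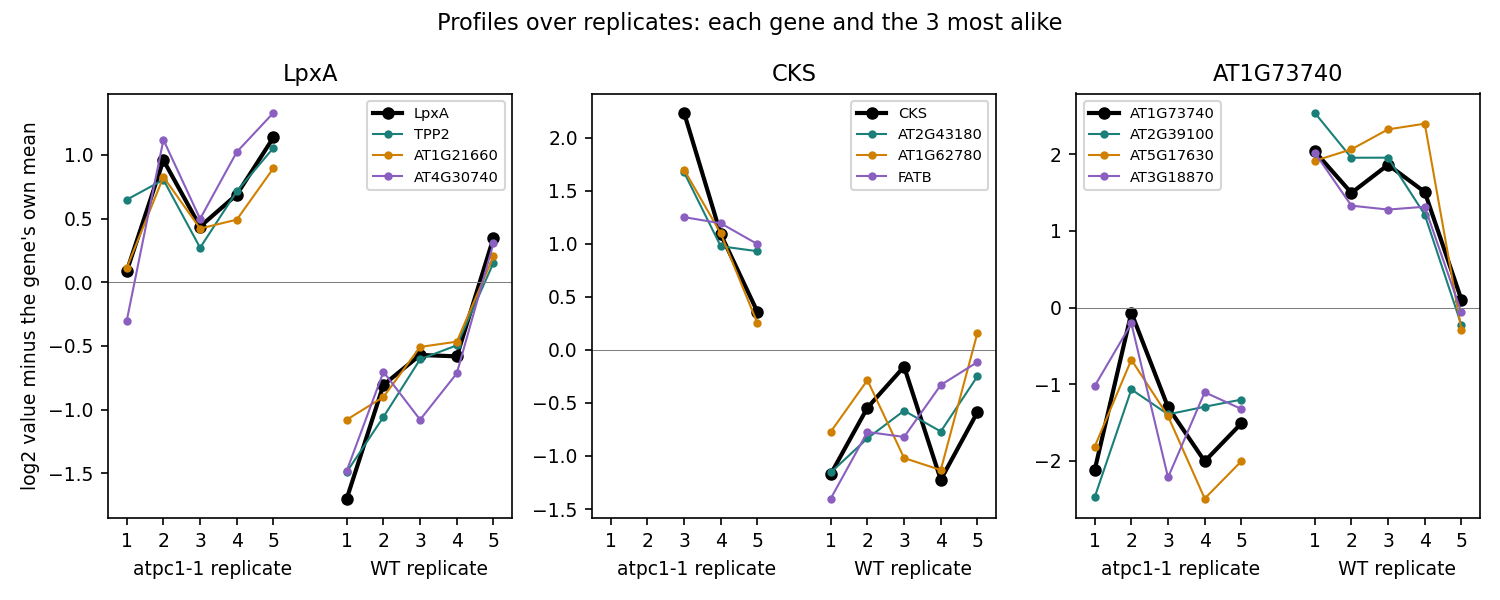
Quantile-normalised log2 value of each gene in each replicate, minus the gene's own mean, with atpc1-1 replicates left and WT replicates right; the thick black line is LpxA, CKS or AT1G73740 and the thin lines are the 3 genes with the smallest distance to it. CKS has no value in atpc1-1 replicates 1 and 2, and WT replicate 5 lies nearest to the mutant for LpxA and AT1G73740.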

How the data were processed

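Expression was measured on arrays in 20 samples, 10 per genotype. The table the authors deposited holds linear intensities, 1 column per sample and 3439 rows. The sources used here do not give the background correction, scaling or filters. Column means lie near 1 and exact zeros occur. Log2 was taken of values above 0, with 0 as missing. Quantile normalisation was done in R 4.3.3 (limma 3.58.1), and columns of adjoining number were averaged to 5 replicates per genotype. Each of 10 columns per genotype correlated best with its partner, at -0.066 to 0.197 in atpc1-1 and 0.177 to 0.733 in WT. These values are not correlations of the levels themselves, which were high across rows (rho 0.884 to 0.951 among the averages of WT replicates 1 to 4). On the same measure, the largest correlation with another column was -0.073 in atpc1-1 and 0.076 in WT. The weakest atpc1-1 pair was thus barely above it, and the pairing is less clear in atpc1-1 than in WT. The labels give no shared batch for replicates of the same number, so the fit reported has no replicate block. Whether replicates are separate plants is not stated, so p-values reflect the spread between arrays only, which can be technical.

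Rows with values in at least 3 replicates of each genotype (3298) were fitted with lmFit and eBayes (genotype only, two-sided, Benjamini-Hochberg adjustment), after the code was tested on simulated data. The number of arrays limits the precision. Gene names came from the platform annotation (692 rows with 1 gene, 870 with several, 1877 with none) and RefSeq's TAIR10.1 gene table, which held 690 of the 692. No coordinates or sequences are given.

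The members and gene lists were chosen with earlier results of these data known. Genes named are the members, every other gene of 6 pathway lists with a row of its own, and the 3 nearest profiles per member. Alternatives covered scaling, zeros, a pseudocount of 0.1, a filter, the use of columns, a replicate block and leaving out each replicate; 2 were chosen after seeing the data.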

Additional observations from a re-analysis of the deposited data

Results flagged for a closer look

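Replicates far from the others of their genotype were looked for in the 29 groups of 4 or 5 replicates of the named genes, which share replicates and in part were chosen for their differences. In 4 groups 1 replicate stood apart, where chance gives about 5 in 100 independent groups. In AT1G73740 WT replicate 5 was lowest, at -1.03 on the log2 scale against 0.36 for the next WT replicate, a gap of 0.720 of the range of the WT replicates. In AT5G17630, of similar profile, WT replicate 5 was also lowest, at -0.23 against 1.98, a gap of 0.820 of the range. In AT2G39100, also of similar profile, atpc1-1 replicate 1 was lowest, at -3.30 against -2.22, a gap of 0.768 of the range. In AT1G24360 atpc1-1 replicate 1 was lowest, at -8.07 against -2.30, a gap of 0.894 of the range. The causes were not tested.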

How the results depend on the processing

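LpxA moved beyond its replicate spread only with median centring (2.29), and its log2 difference was 1.09 to 1.58 with a replicate left out. AT1G73740 was at -3.71 on the deposited scale, at -2.01 with a pseudocount and, chosen after seeing the data, at -4.03 on the deposited scale without WT replicate 5; with a replicate left out it was -3.16 to -2.58. CKS was -0.0064 on the deposited scale and -0.017 there without WT replicate 5, 0.13 with mean scaling, 0.62 with cyclic loess, 1.08 with each zero replaced by its column's lowest positive value, 0.29 with a pseudocount and 1.12 with zeros ranked, an alternative also chosen later; it was 1.84 to 2.16 in the 7 fits with a replicate left out that gave a value. Neither CKS, AT1G73740 nor AT1G24360 is above 0 in all columns, so that filter gave no value for them. Replicates of the same number in both genotypes correlated in their deviations at 0.022 to 0.218, over 0.1 in 3 of 5 pairs, and 2 of 5 atpc1-1 and 3 of 5 WT replicates correlated best with their own number, so pairing was neither established nor excluded. With the replicate block the differences were 1.32 for LpxA, 1.88 for CKS and -2.81 for AT1G73740, and 317 rows were called higher and 415 lower, against 337 and 471 without it. The blocked fit changed no call among the pathway genes. The rows called higher and lower numbered 126 and 1896 on the deposited scale (139 and 1844 there without WT replicate 5), 150 and 1666 under mean scaling, 310 and 293 under cyclic loess, 497 and 403 under median centring, 558 higher with a pseudocount, 507 higher with zeros ranked, and 570 and 840 with all 10 columns as replicates. With a replicate left out they were 195 to 419 and 255 to 541; the numbers higher were 214, 195, 202 and 217, and the numbers lower 266, 258, 255 and 275, on leaving out WT replicate 1, 2, 3 or 4. Of the 4 pathway genes 0 were called higher and 2 lower on the deposited scale, with and without WT replicate 5, and 0 and 1 with mean scaling, against 1 and 0 in the fit reported; with a replicate left out these counts stayed at 1 and 0. AT2G04540 turned to -0.58 on the deposited scale, -0.59 there without WT replicate 5, and -0.44 when scaled by column means. DRT101 turned to 0.33 with median centring and to 0.011, 0.012 and 0.011 with zeros replaced, a pseudocount and zeros ranked. AT1G24360 turned to 0.61, 0.29 and 0.42 in the same 3 settings and to 0.56 without atpc1-1 replicate 1, where the range over left-out replicates was -1.03 to 0.56. Why these values moved was not tested. Signal near the floor limits CKS in both genotypes and AT1G73740 in atpc1-1.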
